A study of Mus musculus with 20 samples.

Results

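The genes described here encode mouse potassium channels and their subunits. Membership went by name, as every gene whose official symbol starts with Kcn followed by a further letter. The symbol was found through the RefSeq accession of each array probe. This rule was chosen with earlier results of these data known. The arrays named 20972 gene symbols, 97 of which met this rule, with 133 probes between them, and the rule itself uses no measured value. Of the 97 genes, 77 were bright enough to be tested among 15102 genes in all, and the other 20 are accounted for below.

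Potassium channels let potassium leave or, more rarely, enter a cell, which sets its resting voltage and ends each action potential. Voltage-gated (Kv) channels open on depolarisation, inward rectifiers hold the cell near its resting voltage, 2-pore channels carry a background leak, and calcium- or sodium-activated channels answer to ions that enter during firing. The striatum is known for its dependence on them, since the hyperpolarised resting state of its medium spiny neurons rests on inwardly rectifying current, and their delayed first spike on Kv current.

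The study asked how the HIV-1 protein Tat and repeated methamphetamine (Meth) act together on gene expression in the mouse brain. It used 20 one-colour Agilent arrays, each with RNA from 1 male C57BL/6J mouse, in 4 groups of 5. Mice called Tat- carried a Tet-binding protein driven by the GFAP promoter, which is active in astrocytes, and mice called Tat+ also carried a Tat transgene behind a TRE promoter, so that astrocytes are the source of Tat. The labels give doxycycline at 100 mg/kg for 7 days to both genotypes. Mice received saline (Tat-/Sal and Tat+/Sal) or 2 mg/kg Meth (Tat-/Meth and Tat+/Meth) for 7 days, and the labels place collection of the left hemisphere 24 h after the last injection, at an age of 6 to 7 weeks. The methods of the study instead describe dissected caudate putamen of older mice, taken after a period of abstinence and a drug challenge, so tissue and timing are not settled.

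All values below are log2 intensities, with the 75th percentile of every array set to a common level. The mean of 9 medium spiny neuron markers ranged from 15.71 to 16.04 over the 20 arrays, and that of 5 cortical excitatory neuron markers from 5.30 to 8.43. By group the Tat-/Sal arrays had cortical means of 6.21 to 8.43, the Tat-/Meth arrays 5.75 to 6.92, the Tat+/Sal arrays 5.30 to 8.18 and the Tat+/Meth arrays 5.50 to 6.69. The mean of 4 thalamus markers was 8.07 to 8.31 on the Tat-/Meth arrays and 8.42 to 9.08 on all others. In Tat-/Meth vs. Tat-/Sal 1 cortical and 1 thalamus marker (Tcf7l2) were called lower, and the latter was called higher in Tat+/Meth vs. Tat-/Meth. The thalamus marker Prkcd went the other way, with means of 8.97 in Tat-/Sal and 9.47 in Tat-/Meth. At an adjusted p under 0.05 it was higher in Tat-/Meth vs. Tat-/Sal and lower in Tat+/Meth vs. Tat-/Meth. The thalamus markers thus did not move together. The part of tissue from these regions in the differences below was not tested. Probes well above background made up 55.3 to 70.9% of each array. The 5 Tat-/Meth arrays were all on 1 slide that held no other group, while a second slide held the 5 Tat-/Sal arrays with 3 Tat+/Meth arrays, and the other slide the 5 Tat+/Sal arrays with 2 Tat+/Meth arrays. The bright corner control spots read 14.67 to 15.06 on the Tat-/Meth slide and 16.79 to 17.44 on the others. In every comparison that uses Tat-/Meth, group and slide therefore cannot be told apart. In bulk tissue, fewer cells of a type and less RNA per cell cannot be told apart either.

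Promoter sequences are shown for the potassium channel genes that passed both thresholds in a comparison below, since these are the genes the results turn on. They come from RefSeq promoter windows of 300 bases on GRCm38.p6, from 250 bases before to 50 after an annotated start, written 5′ to 3′ on the strand of the gene. The windows matched 71 of the 97 genes. Of the 8 genes concerned, Kcnk9 and Kcng2 are named only. Capitals mark a match on either strand to the TATA box (letters TATAAA), the CCAAT box (letters CCAAT), the GC box (GGGCGG), the cAMP response element (TGACGTCA), the AP-1 site (TGANTCA) or the E-box (CACGTG), and a match describes letters, not a site in use.
Kcnj15, chr16:95257308-95257607, plus strand, TTTATA in capitals, which is TATAAA on the other strand: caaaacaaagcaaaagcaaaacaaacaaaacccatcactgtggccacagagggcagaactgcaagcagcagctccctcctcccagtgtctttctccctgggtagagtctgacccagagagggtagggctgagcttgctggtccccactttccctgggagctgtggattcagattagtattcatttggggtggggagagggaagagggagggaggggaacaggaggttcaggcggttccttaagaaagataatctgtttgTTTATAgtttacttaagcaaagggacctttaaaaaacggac
Kcnk4, chr19:6934466-6934765, minus strand, GGGCGG in capitals: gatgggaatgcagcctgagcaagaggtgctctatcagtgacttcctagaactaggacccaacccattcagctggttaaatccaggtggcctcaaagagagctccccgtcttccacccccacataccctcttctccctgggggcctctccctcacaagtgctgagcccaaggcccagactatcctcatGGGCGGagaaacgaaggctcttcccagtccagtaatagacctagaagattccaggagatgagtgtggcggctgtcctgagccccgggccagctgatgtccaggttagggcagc
Kcna7, chr7:45405710-45406009, plus strand, no match: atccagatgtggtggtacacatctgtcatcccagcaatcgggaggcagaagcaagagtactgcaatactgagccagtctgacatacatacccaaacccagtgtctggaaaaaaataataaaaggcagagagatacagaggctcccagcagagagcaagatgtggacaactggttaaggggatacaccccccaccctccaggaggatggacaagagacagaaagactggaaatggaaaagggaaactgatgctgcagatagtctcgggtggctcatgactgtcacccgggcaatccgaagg
Kcnh4, chr11:100759729-100760028, minus strand, CACGTG and GGGCGG in capitals: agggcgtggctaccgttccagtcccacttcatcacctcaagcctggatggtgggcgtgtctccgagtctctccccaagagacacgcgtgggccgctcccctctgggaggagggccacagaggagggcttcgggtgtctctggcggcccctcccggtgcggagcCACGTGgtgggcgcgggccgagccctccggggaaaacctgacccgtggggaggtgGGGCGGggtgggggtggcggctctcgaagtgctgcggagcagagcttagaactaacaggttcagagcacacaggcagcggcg
Kcnt2, chr1:140245468-140245767, plus strand, ATTGG in capitals at 2 places, which is CCAAT on the other strand: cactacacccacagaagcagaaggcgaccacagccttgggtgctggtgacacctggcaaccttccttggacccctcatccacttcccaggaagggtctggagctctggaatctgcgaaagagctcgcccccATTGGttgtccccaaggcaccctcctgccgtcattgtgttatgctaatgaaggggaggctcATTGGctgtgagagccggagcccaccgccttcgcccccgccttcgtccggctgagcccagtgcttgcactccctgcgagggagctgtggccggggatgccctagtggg
Kcnmb1, chr11:33962763-33963062, plus strand, no match: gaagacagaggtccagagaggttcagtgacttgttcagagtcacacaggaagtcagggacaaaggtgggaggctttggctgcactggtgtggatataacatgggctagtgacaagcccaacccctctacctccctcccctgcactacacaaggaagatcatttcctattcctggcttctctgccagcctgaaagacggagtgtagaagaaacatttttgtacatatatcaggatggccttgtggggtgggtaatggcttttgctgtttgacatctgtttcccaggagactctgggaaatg

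The GC content of these windows ran from 49.7% in Kcnj15 and Kcnmb1 to 68.7% in Kcnh4. Over all 96 windows of potassium channel genes the median GC content was 58%, against 52.7% over 32851 windows of all genes. The TATA box letters were in 5.21% of the potassium channel windows and in 13.6% of all windows, and the GC box letters in 46.9% and 35.7%. The CCAAT box letters were in 32.3% and 37.4%, those of the AP-1 site in 4.17% and 7.81%, those of the E-box in 7.29% and 7.15%, and those of the cAMP response element in 0% and 1.79%.

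Most potassium channel genes gave a signal in this tissue. Of the 97, 67 were well above background on all 20 arrays and 26 on some of them, while 4, Kcne1, Kcnj1 and Kcnv2 among them, were not well above background on any array. Per array, the number well above background ran from 74 to 88 (Tat-/Sal), 77 to 84 (Tat-/Meth), 72 to 83 (Tat+/Sal) and 76 to 86 (Tat+/Meth), so the groups overlapped. The 20 genes that stayed under the limit for testing, a mean of 6 in at least 1 group, included Kcna10, Kcne1, Kcne2, Kcne3, Kcne4, Kcng4, Kcnh6, Kcnh7, Kcnj1, Kcnj6, Kcnk18, Kcnk5, Kcnk7, Kcnmb2, Kcnmb3, Kcnmb4os1, Kcnn1, Kcnn4 and Kcnv2. Just inside the limit lay Kcnq1 with a highest group mean of 6.01 and Kcnh8 with 6.02, and just outside it Kcne3 with 5.96 and Kcnn4 with 5.77. The within-group SD of the 77 tested genes had a median of 0.209, against 0.147 for all genes tested.

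Meth without Tat was measured by comparing Tat-/Meth against Tat-/Sal. Here a gene is said to have passed at an adjusted p under 0.05 in limma (Benjamini-Hochberg over all genes tested), and to be called when it also changed by more than 2-fold. Of the 77 potassium channel genes, 4 were called, or 5.19%, where 6.85% of all genes were. The 2-pore channel Kcnk9, the inward rectifier Kcnj15 and the silent Kv subunit Kcng2 fell, and the calcium-activated channel subunit Kcnmb1 rose. Without the fold threshold 33 passed, 11 of them lower (14.3%, beside 15.3% of all genes) and 22 higher (28.6%, beside 35%). The groups did not overlap for 9 lower genes (11.7%, beside 11.5%) and 14 higher genes (18.2%, beside 24.7%). The median change of the 77 genes was 0.14, equal to the median of all genes tested. The split between directions depended on the scaling, since without any scaling 30 passed lower and 1 higher. With normexp background correction, under which all 97 genes cleared the signal limit, 10 passed lower and 36 higher, or 10 and 27 of the 77.

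**Figure D1:**
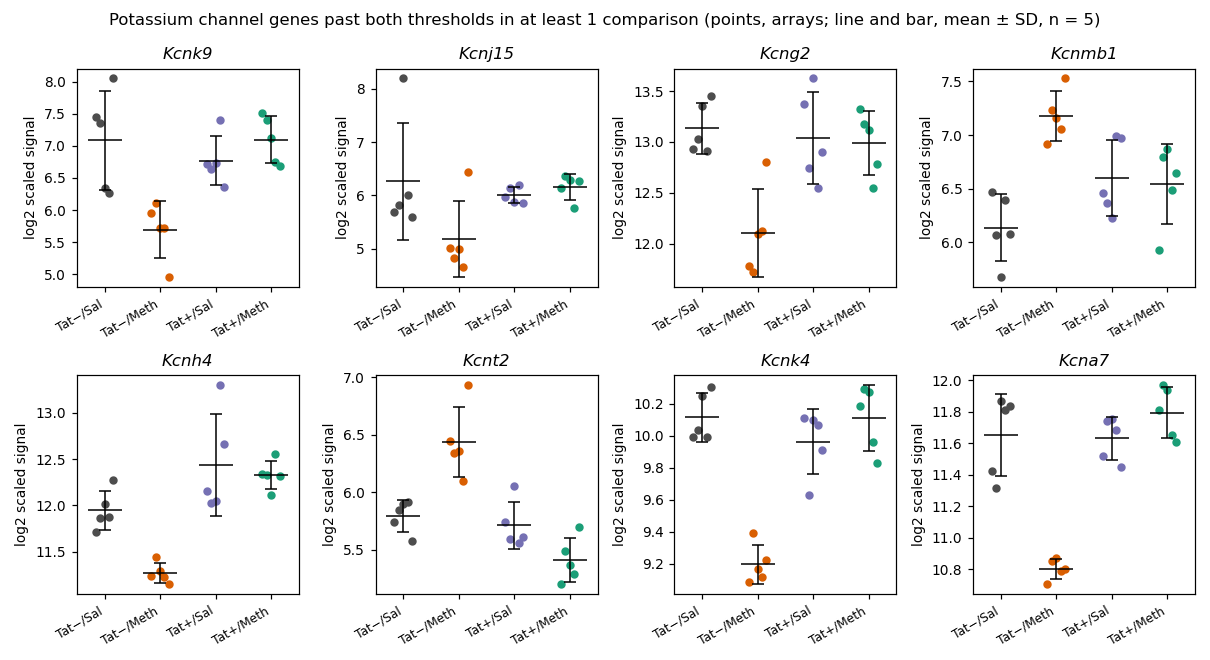
Scaled log2 intensity (vertical axis) of the 8 potassium channel genes called in a comparison, in the 4 groups of 5 arrays (horizontal axis); points are arrays, and the line and bar are the mean ± SD. The Tat-/Meth arrays of Kcnk4 and Kcna7 lie below all other arrays, while 1 Tat-/Sal array of Kcnj15 lies at 8.20, above the rest.

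Among the 2-pore channels, which carry leak current, 11 of 14 genes were tested, and 2 passed lower and 2 higher. Kcnk9 encodes TASK-3, an acid-sensitive leak channel. It read 7.44, 7.35, 6.34, 6.26 and 8.05 in Tat-/Sal and 5.96, 6.11, 5.71, 5.71 and 4.96 in Tat-/Meth. Every Tat-/Meth array was below every Tat-/Sal array, although 1 Tat-/Meth array was not well above background for this dim probe. The difference was -1.40 ± 0.31 (SE, adjusted p = 0.00105), or 2.63-fold lower. Kcnk4 encodes TRAAK, a leak channel opened by membrane stretch, and it read 9.99, 10.04, 10.25, 9.99 and 10.30 in Tat-/Sal and 9.08, 9.39, 9.16, 9.12 and 9.22 in Tat-/Meth. These groups lay well apart, with SDs of 0.15 and 0.12 and a difference of -0.92 ± 0.11 (adjusted p = 1.54e-06). The other leak channels that passed were Kcnk13 (THIK-1), higher by 0.45 ± 0.09, and the acid-sensitive Kcnk3 (TASK-1), higher by 0.26 ± 0.09. Kcnk2 (TREK-1), which is opened by stretch and lipids, differed by 0.11 ± 0.13 and did not pass. Members of the same class, and both acid-sensitive TASK channels among them, thus had changes of opposite sign under the scaling used. Without scaling the median of all genes moved from 0.14 to -0.29.

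Inward rectifiers were tested in 13 of 15 cases, and 1 passed lower and 3 higher. Kcnj10 encodes Kir4.1, the potassium-buffering channel of astrocytes. It read 14.15, 14.20, 14.12, 14.07 and 14.32 in Tat-/Sal and 14.85, 14.42, 14.74, 14.62 and 14.57 in Tat-/Meth, with no overlap, and rose by 0.47 ± 0.10 (adjusted p = 0.000567). Of the astrocyte markers Gfap, Aqp4, Aldh1l1, Slc1a3 and Gja1, 3 of the 5 passed higher, where 35% of all genes did. The largest rise was that of the gap junction gene Gja1 at 0.84. The mean level of the 5 was 12.02 to 12.16 on the Tat-/Sal arrays and 12.34 to 12.70 on the Tat-/Meth arrays. The part of astrocyte RNA in the Kcnj10 difference was not tested. Kcnj2, the Kir2.1 subunit of strong inward rectifiers, rose by 0.57 ± 0.18 (adjusted p = 0.0147), from 7.65 ± 0.18 to 8.23 ± 0.29 (SD, n = 5 each). Kcnj4, the Kir2.3 subunit of the same current in medium spiny neurons, was 15.63 ± 0.32 and 15.78 ± 0.06 and did not pass. The G-protein-gated subunits Kcnj3 and Kcnj9 differed by 0.12 ± 0.17 and 0.05 ± 0.10 and did not pass, and Kcnj6, below the limit, was well above background on 4 Tat-/Sal and 3 Tat-/Meth arrays.

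Kcnj15, the Kir4.2 subunit, was the least stable of the called genes. It read 5.69, 5.83, 8.20, 6.01 and 5.59 in Tat-/Sal and 5.01, 4.83, 4.99, 4.66 and 6.44 in Tat-/Meth, where it was well above background on 2 arrays. Replicate 3 of Tat-/Sal stood far above its group, and the groups overlapped through replicate 5 of Tat-/Meth alone. The difference of -1.07 ± 0.40 had an adjusted p of 0.0306. It was -0.59 (adjusted p = 0.066) without replicate 3 of Tat-/Sal, and it also missed the threshold without any 1 of replicates 1 to 4 of Tat-/Meth.

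Of the voltage-gated channels, the Kv1, Kv3 and Kv4 families each moved in both directions by the brightest probes of their genes, under the scaling used. Of the Kv1 genes, 7 of 8 were tested. Kcna1, the Kv1.1 subunit of axons, read 14.10, 14.06, 14.07, 13.95 and 14.08 in Tat-/Sal and 14.79, 14.42, 14.52, 14.56 and 14.48 in Tat-/Meth. It rose by 0.50 ± 0.07 (adjusted p = 8.62e-06) with no overlap. Its axonal partner Kcna2 rose by 0.31 ± 0.12 (adjusted p = 0.0382), a call that was lost without any 1 of replicates 1 to 3 of Tat-/Sal or replicates 1, 3 and 4 of Tat-/Meth. Kcna4, the transient Kv1.4 subunit, differed by 0.16 ± 0.11 and did not pass. Kcna7, a Kv1 subunit better known from muscle, read 11.43, 11.31, 11.87, 11.81 and 11.83 in Tat-/Sal and 10.71, 10.85, 10.87, 10.79 and 10.80 in Tat-/Meth. It fell by 0.85 ± 0.11 on the log2 scale (adjusted p = 3.12e-06), and the SD of its Tat-/Meth arrays was 0.06.

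Kcnb2, a delayed rectifier of the cell body, rose by 0.46 ± 0.17 (adjusted p = 0.0293). The Kv3 family, which lets fast-spiking neurons fire at high rates, split by these probes. Kcnc1 (Kv3.1) read 12.17, 12.24, 12.26, 12.34 and 12.45 in Tat-/Sal and 11.69, 11.83, 11.94, 11.80 and 11.80 in Tat-/Meth and fell by 0.48 ± 0.06 (adjusted p = 5.09e-06). Its other 2 probes differed by 0.37 and 0.10, and the mean over all of its probes did not pass (adjusted p = 0.968). Kcnc2 (Kv3.2) read 8.22, 8.17, 8.56, 8.34 and 7.96 in Tat-/Sal and 10.27, 8.99, 8.53, 8.69 and 8.42 in Tat-/Meth. Its groups overlapped, and replicate 1 of Tat-/Meth stood far above the rest. The rise of 0.73 ± 0.25 (adjusted p = 0.0223) was 0.41 (adjusted p = 0.0329) without that array, and missed the threshold without replicate 5 of Tat-/Sal (adjusted p = 0.0545). The same Tat-/Meth array held the highest value of Pvalb, the calcium buffer of fast-spiking interneurons, at 13.28, where the other arrays ran from 11.52 to 12.58. The part of interneuron content in the Kcnc2 value was not tested.

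The Kv4 channels carry the transient A-type current of dendrites, together with calcium-sensing KChIP subunits. Kcnd1 (Kv4.1) read 10.99, 10.99, 11.16, 11.01 and 11.20 in Tat-/Sal and 10.24, 10.27, 10.15, 10.08 and 10.46 in Tat-/Meth, and fell by 0.83 ± 0.08 on the log2 scale (adjusted p = 1.94e-07). Kcnd2 (Kv4.2) read from 14.63 to 14.76 in Tat-/Sal, with a mean of 14.70, and from 14.81 to 15.10 in Tat-/Meth, and rose by 0.30 ± 0.07 (adjusted p = 0.00187). Neither gene had overlapping groups, so these subunits of the same family moved apart under the scaling used. Without scaling Kcnd2 differed by -0.12. Kcnd3 (Kv4.3) differed by 0.10 ± 0.07 and did not pass. Of the 4 KChIP genes, Kcnip4 rose by 0.43 ± 0.08 (adjusted p = 0.00021) and Kcnip1 by 0.27 ± 0.09. A second Kcnip4 probe, well above background on all 20 arrays, differed by -0.11 and did not pass (adjusted p = 0.352). Kcnip2, the striatal KChIP2, differed by 0.29 ± 0.16 and Kcnip3 by -0.04 ± 0.10 without passing. Among the Kv beta subunits, which bind Kv1 channels inside the cell, Kcnab1 rose by 0.18 ± 0.06 (adjusted p = 0.0145) and Kcnab3 by 0.49 ± 0.19 (adjusted p = 0.0355).

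Silent Kv subunits form no channel alone and alter Kv2 channels. Of the 8 tested, Kcng2 (Kv6.2) was called. It read 12.93, 13.03, 13.36, 12.91 and 13.45 in Tat-/Sal and 11.78, 11.73, 12.10, 12.13 and 12.80 in Tat-/Meth, with no overlap, and fell by 1.03 ± 0.22 on the log2 scale (adjusted p = 0.000837), or 2.04-fold, while the mean over its bright and its dim probe differed by 0.39. Kcnf1 (Kv5.1) rose by 0.51 ± 0.12 (adjusted p = 0.00127), Kcnv1 by 0.48 ± 0.07 and Kcns3 by 0.41 ± 0.12. The silent subunits that passed higher thus numbered 3 and lower 1.

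The ether-a-go-go channels were tested in 6 of 8 cases and passed only downward, as Kcnh3 by -0.35 ± 0.07 and Kcnh4 by -0.68 ± 0.18 (adjusted p = 0.00522), both of the ELK type. Kcnh4 read 11.72, 11.86, 12.01, 11.87 and 12.27 in Tat-/Sal and 11.24, 11.44, 11.29, 11.23 and 11.16 in Tat-/Meth. The Kv7 channels carry the M-current that acetylcholine turns off. Kcnq5 rose by 0.48 ± 0.08, and Kcnq3 differed by 0.10 ± 0.10 and did not pass. Kcne1l, a single-span subunit of the MinK family, rose by 0.54 ± 0.09 (adjusted p = 8.61e-05).

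Channels opened by calcium or sodium gave 1 called gene. Kcnmb1, the BK beta1 subunit known from vascular smooth muscle, read 6.47, 6.06, 5.68, 6.39 and 6.08 in Tat-/Sal and 6.91, 7.23, 7.16, 7.06 and 7.53 in Tat-/Meth. All 5 Tat-/Meth arrays were above all Tat-/Sal arrays, and the rise was 1.04 ± 0.19 (adjusted p = 0.000225), or 2.06-fold. The BK pore gene Kcnma1 and the neuronal beta4 subunit Kcnmb4 differed by 0.11 ± 0.05 and 0.12 ± 0.07 and did not pass. Both had further probes well above background on all 20 arrays. For Kcnmb4 such a probe passed at 0.71 (adjusted p = 0.000505). For Kcnma1 a probe passed at 0.22 (adjusted p = 0.0248), while another differed by 0.11 and did not pass (adjusted p = 0.315). Kcnn3, an SK channel, fell by 0.37 ± 0.13, but its second probe differed by 0.28 and did not pass (adjusted p = 0.108). Its relative Kcnn2 differed by 0.23 ± 0.12 and did not pass. Kcnt2 (Slick), a sodium-activated channel, rose by 0.64 ± 0.13 (adjusted p = 0.00063), from 5.80 ± 0.14 to 6.44 ± 0.30, and its relative Kcnt1 differed by 0.01 ± 0.09. Kcnt2 reached the limit for testing only through its Tat-/Meth mean, so its adjusted p values here and below are not independent of that limit.

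**Figure D2:**
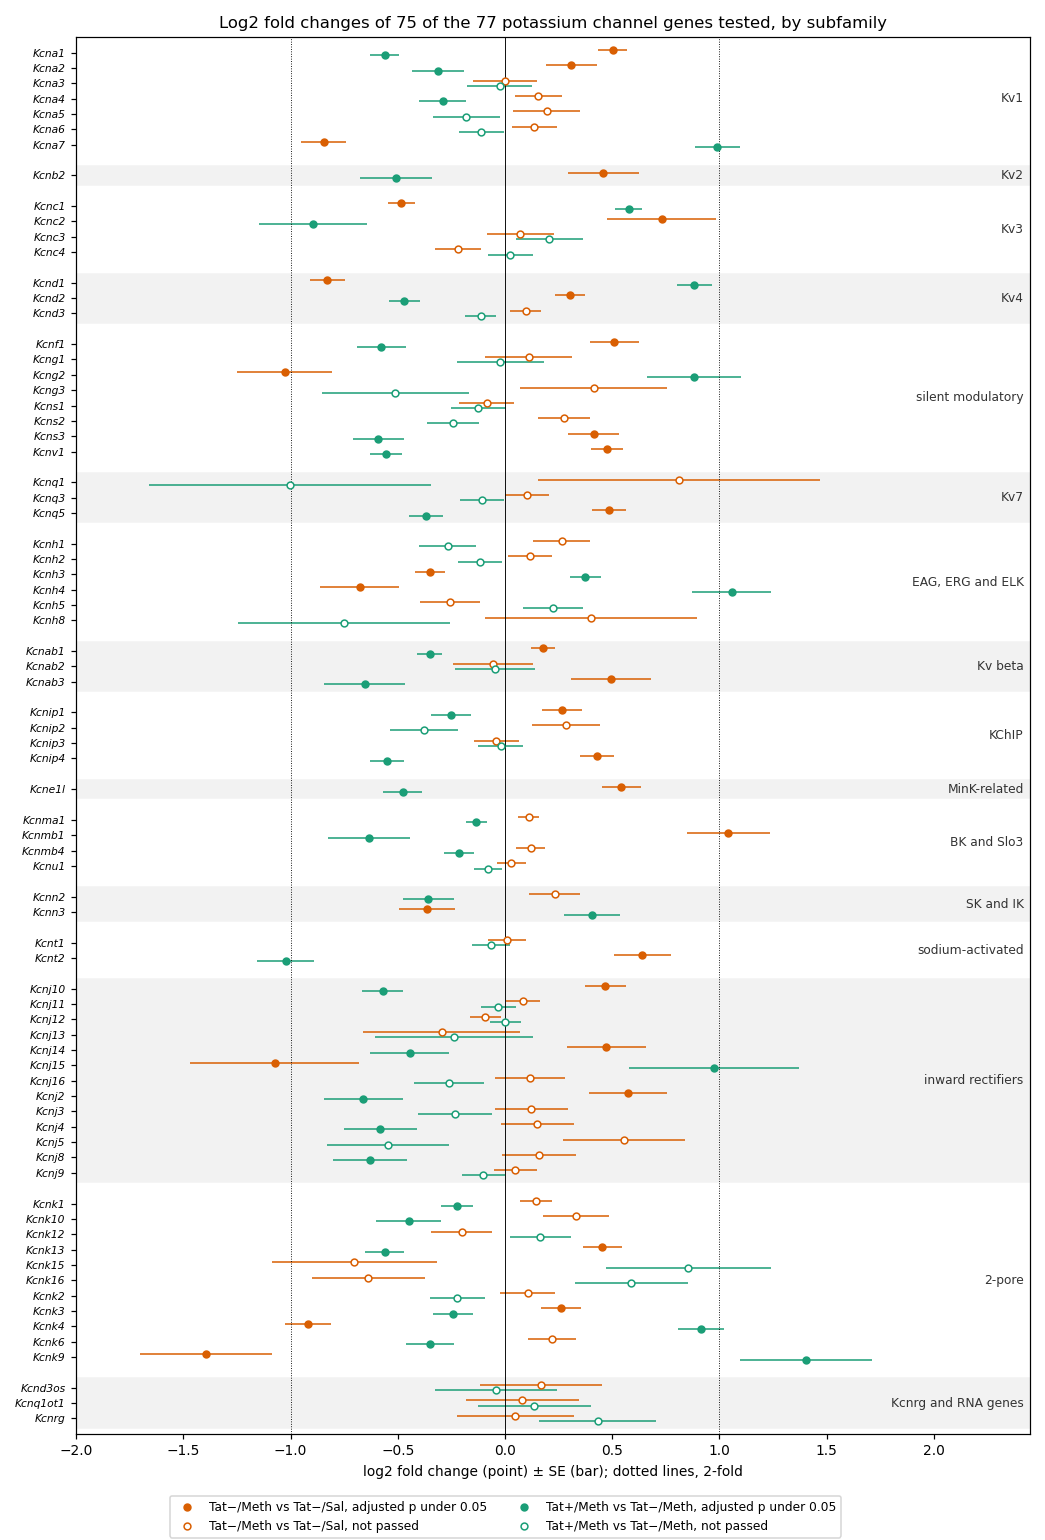
Log2 differences of 75 of the 77 tested potassium channel genes (horizontal axis) by subfamily (vertical axis), with Tat-/Meth vs. Tat-/Sal in orange and Tat+/Meth vs. Tat-/Meth in green; points are differences with bars of 1 SE, filled where the adjusted p was under 0.05, and dotted lines mark 2-fold. Kcnk9 reaches -1.40 in the first and 1.41 in the second comparison, which share the 5 Tat-/Meth arrays.

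Tat under Meth was measured by comparing Tat+/Meth against Tat-/Meth. This contrast contains the same 5 Tat-/Meth arrays as the comparison before, with the opposite sign, so the values of both are given side by side and no overlap between them is counted. Of the 77 potassium channel genes 3 were called, or 3.9%, where 7.22% of all genes were. Kcnk9 and Kcnh4 rose and Kcnt2 fell in Tat+/Meth. Without the fold threshold 42 passed, 31 lower (40.3%, beside 38.5% of all genes) and 11 higher (14.3%, beside 16%). Groups did not overlap for 20 lower (26%, beside 26.8%) and 8 higher genes (10.4%, beside 11.2%). The median change was -0.22, against -0.15 for all genes tested. Without any scaling 1 passed lower and 21 higher.

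Kcnk9 read 7.51, 7.41, 7.13, 6.75 and 6.69 in Tat+/Meth and exceeded Tat-/Meth by 1.41 ± 0.31 (adjusted p = 0.000861), or 2.65-fold. All 5 arrays lay above the highest Tat-/Meth array. Within Tat+/Meth the mean was 7.35 on the slide shared with Tat-/Sal and 6.72 on the slide shared with Tat+/Sal. Kcnh4 read 12.34, 12.32, 12.11, 12.55 and 12.32 in Tat+/Meth and rose by 1.06 ± 0.18 (adjusted p = 0.000102), or 2.08-fold, again with no overlap. Kcnt2 read 5.21, 5.49, 5.37, 5.29 and 5.70 in Tat+/Meth against 6.45, 6.34, 6.36, 6.10 and 6.93 in Tat-/Meth. It fell by 1.02 ± 0.13 on the log2 scale (adjusted p = 4.35e-06), or 2.03-fold, but only 2 of the Tat+/Meth arrays were well above background. Kcnt2 was tested only because its mean in Tat-/Meth, where it was high, reached the limit of 6.

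Of the other genes that had passed lower under Meth without Tat, Kcna7 was higher in Tat+/Meth by 0.99 ± 0.11 (adjusted p = 4.2e-07), Kcnk4 by 0.91 ± 0.11 (adjusted p = 1.38e-06), Kcnd1 by 0.88 ± 0.08 (adjusted p = 8.04e-08), and Kcng2 by 0.88 ± 0.22 (adjusted p = 0.00251). The Tat+/Meth means of Kcna7 (11.79 ± 0.16), Kcnk4 (10.11 ± 0.20), Kcnd1 (11.12 ± 0.14) and Kcng2 (12.99 ± 0.31) lay beside Tat-/Sal means of 11.65 ± 0.26, 10.11 ± 0.15, 11.07 ± 0.10 and 13.14 ± 0.25. Kcnc1 was higher by 0.58 ± 0.06, but differed by -0.11 over the mean of its probes, and Kcnj15 was higher by 0.97 ± 0.40 (adjusted p = 0.0449).

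On the lower side stood Kcnc2 (-0.89 ± 0.25, and -0.57 without replicate 1 of Tat-/Meth), Kcnj2 (-0.66 ± 0.18), Kcnab3 (-0.66 ± 0.19), Kcnmb1 (-0.63 ± 0.19), Kcnip4 (-0.55 ± 0.08), Kcnf1 (-0.58 ± 0.12) and Kcne1l (-0.48 ± 0.09). The second Kcnip4 probe differed by -0.03 and did not pass (adjusted p = 0.827). Kcnab3 also had its highest value, 9.91, on replicate 1 of Tat-/Meth. Kcnj8, the Kir6.1 pore of ATP-sensitive channels in vessels, fell by 0.63 ± 0.17 (adjusted p = 0.00527), and Kcnk6, a weak inwardly rectifying leak channel, by 0.35 ± 0.11 (adjusted p = 0.0136). Kcnj10 fell by 0.57 ± 0.10 (adjusted p = 7.09e-05), and 4 of the 5 astrocyte markers also passed lower, where 38.5% of all genes did. Of genes known from medium spiny neurons, Kcnd2 fell by 0.47 ± 0.07, Kcnab1 by 0.35 ± 0.06 and Kcnj4 by 0.58 ± 0.17 (adjusted p = 0.00737), while Kcnip2 differed by -0.38 ± 0.16 (adjusted p = 0.051). The 9 medium spiny neuron markers held 2 that passed lower (beside 38.5% of all genes) and 2 that passed higher (beside 16%).

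Kcna1 fell by 0.56 ± 0.07 (adjusted p = 2.07e-06) and Kcnn2 by 0.36 ± 0.12 (adjusted p = 0.0154). Smaller changes that passed were Kcna2 (-0.31), Kcna4 (-0.29), Kcnk1, the TWIK-1 leak channel (-0.22), Kcnmb4 (-0.22, and -0.74 by its second probe) and Kcnma1 (-0.13). Those of Kcna2, Kcna4 and Kcnma1 were each lost without any 1 of 5 arrays, and that of Kcnn2 without replicate 1 of Tat-/Meth or replicate 3 of Tat+/Meth. The 2-pore class passed as 5 lower and 2 higher, the inward rectifiers as 5 lower and 1 higher, the Kv1 class as 3 lower and 1 higher, and the BK genes as 3 lower and none higher. Kcnk2, Kcnj3, Kcnj9, Kcnq3 and Kcnt1 did not pass.

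**Figure D3:**
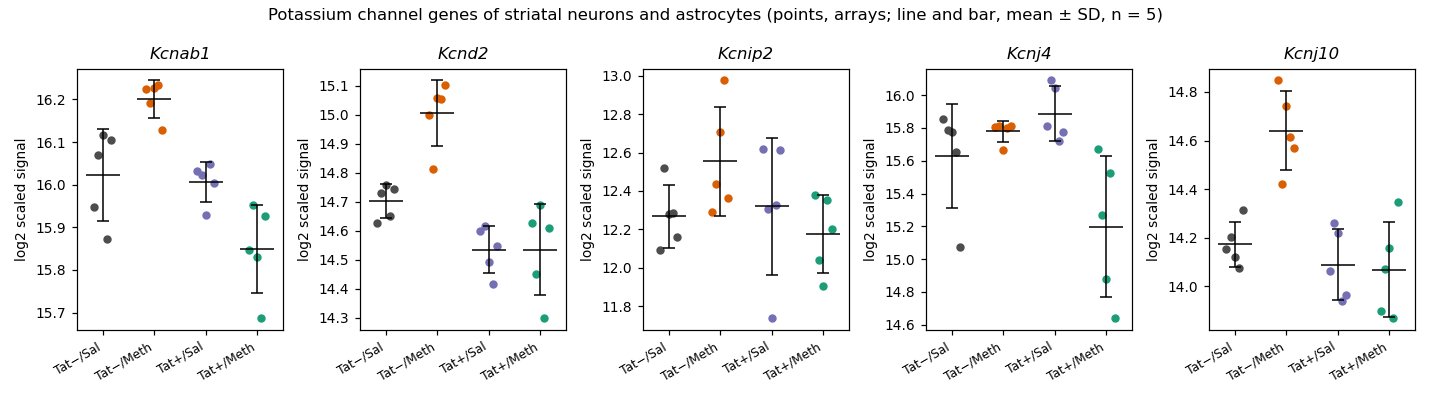
Scaled log2 intensity (vertical axis) of Kcnab1, Kcnd2, Kcnip2, Kcnj4 and Kcnj10 in the 4 groups of 5 arrays (horizontal axis); points are arrays, and the line and bar are the mean ± SD. Kcnd2 and Kcnj10 are highest in Tat-/Meth, and Kcnj4 reaches its lowest values in Tat+/Meth.

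The interaction subtracts the Meth response of Tat- mice from that of Tat+ mice. Because it contains Tat-/Meth, a different response of the genotypes cannot be told apart from a slide difference. The interaction called 4 potassium channel genes, or 5.19%, where 7.44% of all genes were called. Kcnk9 (1.72 ± 0.43, adjusted p = 0.00472), Kcnk4 (1.07 ± 0.15, adjusted p = 3.05e-05) and Kcna7 (1.01 ± 0.15, adjusted p = 4.35e-05) were positive and Kcnmb1 (-1.10 ± 0.27, adjusted p = 0.00414) was negative. Without the fold threshold 22 passed, 15 negative (19.5%, beside 23.6% of all genes) and 7 positive (9.09%, beside 12.4%). Kcnd1 (0.96, adjusted p = 5.16e-06), Kcng2 (0.98, adjusted p = 0.0199) and Kcnc1 (0.46, but -0.18 over the mean of its probes) were among the other positive ones. Kcnk9 missed the threshold with quantile normalization (1.72, adjusted p = 0.0677) and with normexp (0.69, adjusted p = 0.0776).

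The negative interactions included Kcnt2 (-0.94, adjusted p = 0.000768), Kcnj4 (-0.84, adjusted p = 0.0105), Kcnf1 (-0.63), Kcnj10 (-0.49), Kcna1 (-0.41), Kcnk1 (-0.38), Kcne1l (-0.37), Kcnab1 (-0.34) and Kcnd2 (-0.30). Of these, Kcnt2 had been admitted to testing by its Tat-/Meth mean alone. The Kcnj4 value came mostly from the Tat+ mice, where Tat+/Meth minus Tat+/Sal was -0.69, beside 0.15 in the Tat- mice. Kcnd2 differed by 0.30 between the Tat- groups, and its Tat+ means were 14.53 with saline and 14.54 with Meth.

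The 3 comparisons without Tat-/Meth called no potassium channel gene, and in limma none passed at the adjusted p alone; the methods' t-test with the 2-fold threshold also called 0. Between Tat+/Sal and Tat-/Sal, which share no slide, 0.0199% of all genes were called and 1.42% passed. An unadjusted p under 0.05 was reached by 8 of the 77 potassium channel genes (10.4%, beside 20.5% of all genes). The smallest p values were those of Kcnip4 (-0.28 ± 0.08, adjusted p = 0.073), Kcnh4 (0.49 ± 0.18, adjusted p = 0.145) and Kcnk6 (-0.29 ± 0.11, adjusted p = 0.164). Kcnh4 read 12.16, 12.02, 12.05, 13.30 and 12.66 in Tat+/Sal, with replicate 4 far above the rest, and without it the difference was 0.28. With slide as a random block all 3 passed, at adjusted p = 0.00908 for Kcnip4, 0.027 for Kcnh4 and 0.0363 for Kcnk6. That fit used a within-slide correlation of -0.0623. A negative value narrows the error between groups on different slides, so these p values do not allow for a slide difference. With slide as a fixed block, which rests on the Tat+/Meth arrays, the 3 genes did not pass, at 0.891, 0.929 and 0.912. Kcnip4 also passed with quantile normalization (adjusted p = 0.0395), with the replicate number as a block (0.0291) and without replicate 1 (0.0433) or 2 (0.0457) of Tat+/Sal. The second Kcnip4 probe averaged 8.76 in Tat-/Sal and 8.85 in Tat+/Sal, the opposite direction.

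Between Tat+/Meth and Tat+/Sal, Meth with Tat, 0% of all genes were called and 8 potassium channel genes had an unadjusted p under 0.05 (beside 12.2% of all genes). Kcnj4 stood first. It read 15.81, 16.09, 16.04, 15.72 and 15.77 in Tat+/Sal and 15.67, 15.27, 14.88, 15.53 and 14.64 in Tat+/Meth, so that each Tat+/Meth array was below each Tat+/Sal array. The difference was -0.69 ± 0.17 (limma, adjusted p = 0.218), and -0.80 between the arrays of both groups on their shared slide. Kcnk1 differed by -0.23 ± 0.07 (adjusted p = 0.243) and by -0.28 on that slide. Kcnrg, a regulator of channel assembly rather than a channel, differed by 0.78 ± 0.27 (adjusted p = 0.277), where replicate 4 of Tat+/Meth read 7.72 and the difference without it was 0.46.

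Between Tat+/Meth and Tat-/Sal, again with 0% of all genes called, 6 potassium channel genes had an unadjusted p under 0.05 (beside 7.79%). Kcnab1 (-0.17 ± 0.06), Kcnt2 (-0.38 ± 0.13) and Kcnj8 (-0.47 ± 0.17) led, each with an adjusted p of 0.64. On the slide that holds both groups, the differences were -0.15, -0.44 and -0.36.

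Several genes were measured by more than 1 probe, and for 34 of the 97 the brightest probe, used above, could be set against another in direction, not in level. For Tat-/Meth vs. Tat-/Sal, the genes that passed had 11 other probes well above background on all 20 arrays. Of these, 5 had the same sign as the brightest probe, 2 of which passed, and 6 the opposite sign, 1 of which passed. For Tat+/Meth vs. Tat-/Meth they had 14 such probes. There 10 had the same sign, 4 of which passed, and 4 the opposite sign, 3 of which passed. Several of the genes that fell in Tat-/Meth had another probe of opposite sign, as the values of Kcnc1 and Kcnh4 show.

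For Kcnc1 the other probes differed by 0.37 (adjusted p = 0.0969) and 0.10 (adjusted p = 0.493) in Tat-/Meth vs. Tat-/Sal, and by -0.53 (adjusted p = 0.0191) and -0.39 (adjusted p = 0.0124) in Tat+/Meth vs. Tat-/Meth. The second Kcna7 probe differed by -0.16 (adjusted p = 0.376) and 0.18 (adjusted p = 0.307), and the second Kcnh4 probe by 0.27 (adjusted p = 0.601) and 0.16 (adjusted p = 0.762), so neither passed. The second Kcnf1 probe, by contrast, passed in the direction of the first, at 0.52 (adjusted p = 0.00306) and -0.36 (adjusted p = 0.0295). The second Kcng2 probe, well above background on 7 arrays, differed by 1.81 and -0.61. That of Kcnk4, well above background on 15 arrays, differed by -0.24 and -0.01. For Kcnip3 the brightest probe differed by -0.04 and -0.02, while a dim probe, well above background on 14 arrays, differed by -2.05 and 2.06. What part of each transcript these probes cover was not tested.

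**Figure D4:**
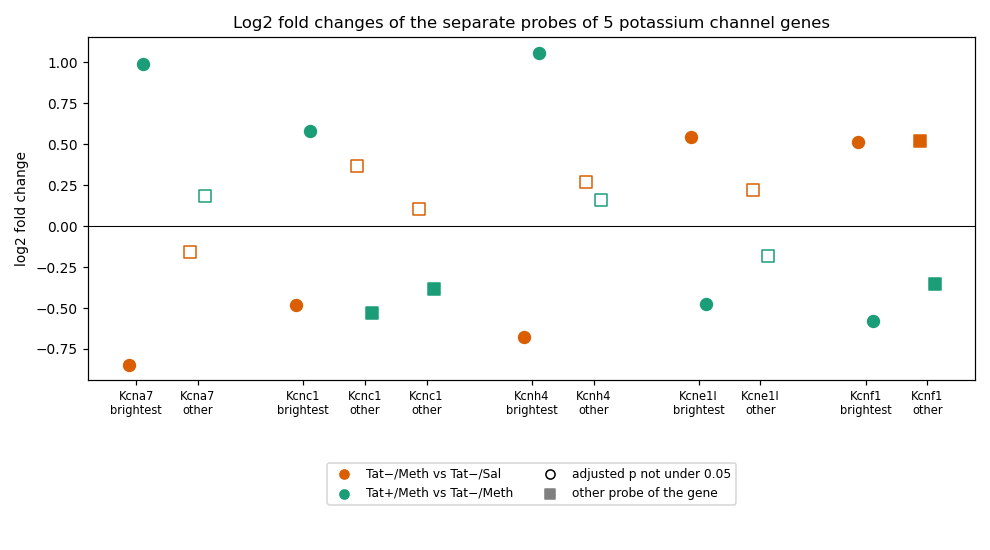
Log2 fold change (vertical axis) of each probe of Kcna7, Kcnc1, Kcnh4, Kcne1l and Kcnf1 (horizontal axis), for Meth without Tat in orange and for Tat under Meth in green; circles are the brightest probes, squares the others, filled where the adjusted p was under 0.05. The brightest Kcnc1 probe lies on the other side of 0 from its other probes, at -0.48 against 0.37 and 0.10 in orange, while both Kcnf1 probes lie on the same side.

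A pair of the genes, Kcne2 and Kcnj13, belong to the choroid plexus, the epithelium that makes cerebrospinal fluid. Kcne2, a MinK-related subunit, was below the limit for testing and well above background on 4 arrays, namely Tat-/Sal replicate 3 (5.66), Tat-/Meth replicates 1 (6.48) and 4 (5.38) and Tat+/Sal replicate 2 (6.21). These were the 4 arrays with the highest signal of Ttr, the transthyretin gene that marks this epithelium, at 13.38, 12.82, 11.35 and 13.34. On the other 16 arrays Ttr ran from 4.60 to 10.62, and Kcne2 reached at most 5.04. The 4 choroid plexus markers Ttr, Kl, Folr1 and Otx2 averaged 6.87 to 9.96 per array, in groups that overlapped, and none of the 4 passed in either comparison with Tat-/Meth. Kcnj13, the Kir7.1 channel, was highest on Tat-/Meth replicate 1 (7.73) and lowest on Tat+/Sal replicate 3 (5.15), where Ttr read 12.82 and 4.99. It did not follow Ttr throughout, as it read 6.62 on the array with the lowest Ttr, Tat+/Meth replicate 1, and 7.03 on Tat-/Sal replicate 2, where Ttr read 6.07. Its group means of 6.88 ± 0.28, 6.58 ± 0.79, 6.37 ± 0.80 and 6.35 ± 0.46 did not differ beyond their spread in any comparison. A second Kcnj13 probe, well above background on 14 arrays, differed by -1.50 in Tat+/Meth vs. Tat-/Meth (adjusted p = 0.0164).

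**Figure D5:**
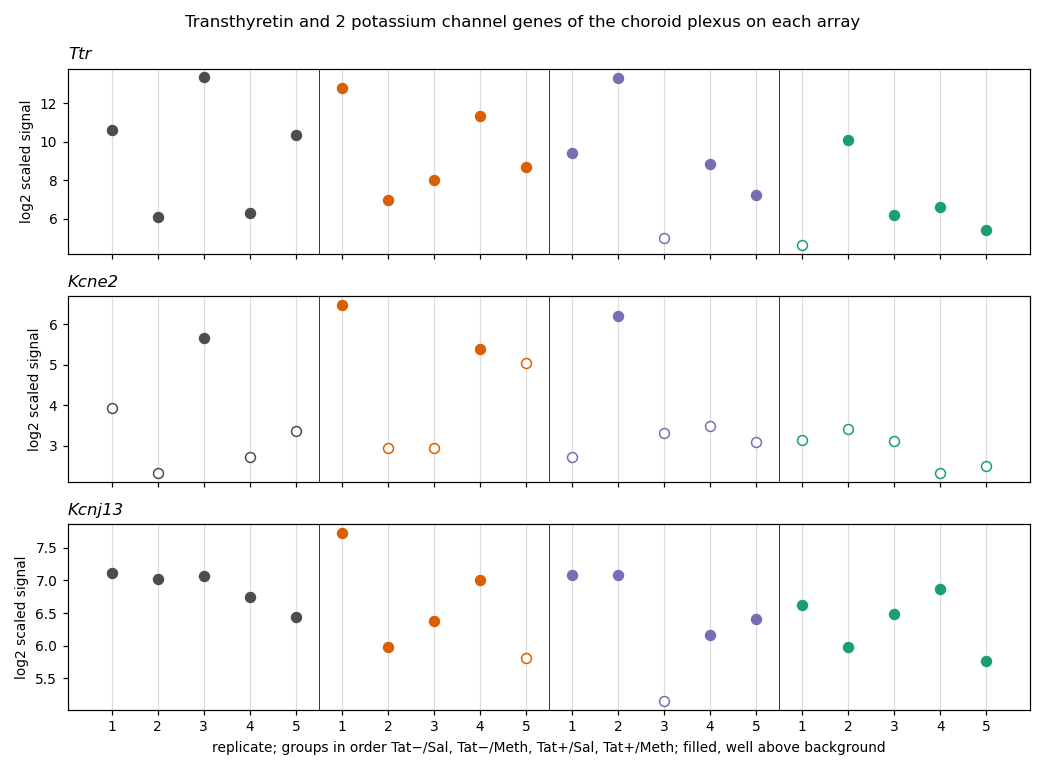
Scaled log2 intensity of Ttr, Kcne2 and Kcnj13 (vertical axes) on each of the 20 arrays, by group (horizontal axis); each point is 1 array, filled where the probe was well above background. The 4 filled Kcne2 points, 5.38 to 6.48, are on the arrays with the 4 highest Ttr values, 11.35 to 13.38.

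Genes outside the Kcn name that work with potassium channels were taken as a list of 37, of which 36 had a probe and 33 were tested. None was called between Tat-/Meth and Tat-/Sal, where 5 passed lower (beside 15.3% of all genes) and 10 higher (beside 35%). None was called between Tat+/Meth and Tat-/Meth either, where 9 passed lower (beside 38.5%) and 4 higher (beside 16%). The median changes were 0.16 and -0.09, beside 0.14 and -0.15 over all genes tested. In the interaction 1 of the 33, an HCN channel, was called higher, where 7.44% of all genes were called. The hyperpolarisation-activated HCN channels, which carry an inward cation current at rest, include Hcn2. It differed by -0.51 ± 0.10 (adjusted p = 0.000413) in the first comparison and by 0.78 ± 0.10 (adjusted p = 4.8e-06) in the second. Of the 8 genes that cluster Kv1 channels on axons, 4 passed higher (beside 35% of all genes) and 1 lower (beside 15.3%) in Tat-/Meth. In Tat+/Meth the epilepsy-linked Lgi1 fell by 0.62 (adjusted p = 2.64e-07).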

How the data were processed

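RNA of 20 mice was hybridised to 20 one-colour arrays, and per the labels each group holds 5 mice. The authors deposited background-subtracted intensity values from Feature Extraction 10.7.3.1. The methods name another dye, array format and scanner than the file headers do, and the headers were followed. The deposited series matrix was an alternative. Each array holds 62976 spots and 55681 probes, 27656 of them with a gene symbol. Outlier spots (4278 over all arrays) were left out, which leaves Kcnu1 with no value on Tat+/Sal replicate 3. The 75th percentiles of all arrays were set equal and intensities turned to log2 values. From there on, all steps were computed from the deposited files. The brightest probe by its mean over the 20 arrays stood for a gene, and a gene needed a mean of 6 in at least 1 group to be tested. No columns of other series were used.

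Groups were compared in limma 3.58.1 (R 4.3.3; lmFit and eBayes, 1 mean per group over all 20 arrays), after the procedure was tested on simulated data, with Benjamini-Hochberg adjustment over all 15102 genes tested. Spread measures 5 mice per group, and the number of arrays limits the precision. Tables and plots were made in Python 3.11.15 with pandas 2.3.3 and matplotlib 3.10.9. The genes, their families and all lists were chosen with earlier results of these data known. The genes named are those called, the 5 with the largest change per direction among those that passed without being called and were well above background on all arrays of both groups (Tat-/Meth comparisons), the 3 with the smallest p where fewer than 3 were called, a list of 24 genes, those never above background, and listed partners that were called. Further genes are named to account for families, lists and probes, chosen after their values were seen. Some genes that fit these rules are not reported here, but they stay in the fits and counts. Alternatives were other scalings (median, quantile, none), the series matrix, normexp background correction (offset 50), the mean over all probes or every probe on its own, no signal limit, a filter on probes well above background, stricter or no fold limits, the compared groups alone, the methods' t-test, slide and replicate number as blocks, and leaving out each array. The methods' t-test was run on the same log2 values, with the 2-fold threshold, before and after adjustment.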

Additional observations from a re-analysis of the deposited data

Results flagged for a closer look

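In groups of 5, chance marks about 1 in 20 groups as holding an array far from the others, and here 12 of 156 sets (39 named potassium channel genes in 4 groups) did. Below the rest of their group were Kcna1 on Tat-/Sal replicate 4 (13.95, next 14.06), Kcna2 on Tat-/Sal replicate 1 (10.04, next 10.36), Kcnab3 on Tat+/Meth replicate 4 (8.12, next 8.47), and Kcnj4 on Tat-/Sal replicate 5 (15.07, next 15.65) and on Tat-/Meth replicate 3 (15.67, next 15.80). Above the rest were Kcnab3 on Tat-/Meth replicate 1 (9.91, next 9.03), Kcnd1 on Tat+/Sal replicate 4 (11.21, next 10.95), Kcne2 on Tat+/Sal replicate 2 (6.21, next 3.49), Kcnj15 on Tat-/Sal replicate 3 (8.20, next 6.01) and on Tat-/Meth replicate 5 (6.44, next 5.01), Kcnk6 on Tat-/Meth replicate 1 (10.12, next 10.02) and Kcnrg on Tat+/Meth replicate 4 (7.72, next 6.26). Replicate 1 of Tat-/Meth appears for Kcnab3 and Kcnk6, and replicate 4 of Tat+/Meth for Kcnab3 and Kcnrg.

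Over all genes tested, the interaction in limma passed as negative for 23.6% and as positive for 12.4%. It passed for 16 of the 39 named genes, some of which were picked by this interaction or by the Tat-/Meth comparisons. It was positive for Kcnk9 (1.72), Kcnk4 (1.07), Kcna7 (1.01), Kcng2 (0.98), Kcnd1 (0.96) and Kcnc1 (0.46). It was negative for Kcnmb1 (-1.10), Kcnt2 (-0.94), Kcnj4 (-0.84), Kcnf1 (-0.63), Kcnj10 (-0.49), Kcna1 (-0.41), Kcnk1 (-0.38), Kcne1l (-0.37), Kcnab1 (-0.34) and Kcnd2 (-0.30). Every one of these values uses the Tat-/Meth arrays, whose slide held no other group.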

How the results depend on the processing

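Of 66 followed changes of named genes, 16 turned sign in an alternative. Over the mean of all probes, Kcng2 was 0.39 in the first comparison (Tat-/Meth vs. Tat-/Sal) and -0.15 in the interaction, and Kcnc1 -0.11 in the second (Tat+/Meth vs. Tat-/Meth) and -0.18 in the interaction. Without scaling, which moved the median of all genes from 0.14 to -0.29 and from -0.15 to 0.19, the first gave Kcna2 -0.11, Kcnab1 -0.24 and Kcnd2 -0.12, the second Kcna2 0.03, Kcna4 0.05, Kcnma1 0.20 and Kcnmb4 0.12, and the interaction Kcna1 0.07, Kcnab1 0.15, Kcnd2 0.18, Kcne1l 0.12 and Kcnk1 0.11. Median scaling put the medians at 0.26 and -0.31, normexp at 0.22 and -0.22.

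The 4 called genes of the first comparison became 2 with median scaling or the series matrix, 10 without scaling, 1 with normexp, 7 with no signal limit, 0 at an adjusted p under 0.01 and 3-fold, and 33 with no fold limit. The 3 of the second became 5 with quantile normalization, no signal limit or every probe on its own, 9 without scaling, 1 with normexp, 0 at the strict limits and 42 with no fold limit. The 4 of the interaction became 12 without scaling, 1 with normexp or the strict limits and 22 with no fold limit. The 11 that passed lower in the first comparison became 7 with median scaling, 30 without scaling and 6 over the mean of probes, and the 22 higher became 1 without scaling and 36 with normexp, under which all 97 genes cleared the signal limit (27 of the 77). In the second the 31 lower became 1 without scaling, and the 11 higher became 21 without scaling and 6 over the mean of probes. The cause was not tested, except that no fold limit and no signal limit admit more genes by construction.

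Leaving out single arrays gave 1 to 5 called genes in the first comparison, 2 to 6 in the second, 2 to 9 in the interaction and 0 to 0 in the other comparisons. Lower and higher genes at the adjusted p ranged from 9 to 12 and 18 to 23 in the first, and from 25 to 32 and 10 to 13 in the second. In the first, 1 gene (Kcnk9) was called without Tat-/Sal replicate 3 and 2 (Kcnk9 and Kcnmb1) without Tat-/Meth replicate 1 or 2. In the second, 5 were called without Tat-/Meth replicate 3 or Tat+/Meth replicate 4, 6 without Tat-/Meth replicate 5 and 2 without Tat+/Meth replicate 1. In the interaction, 2 were called without Tat-/Sal replicate 3 and 9 without Tat-/Meth replicate 5.

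With the replicate number as a block the comparisons called 4, 3 and 4 genes, as many as without it. Of the named genes, Kcna2 then missed the threshold in the first and second (adjusted p = 0.0585 and 0.0531) and Kcnip4 passed in Tat+/Sal vs. Tat-/Sal (0.0291). Whether the numbers pair the arrays is not settled. Correlations of same-numbered deviations ran from -0.178 to 0.355 over 30 pairs, with a median of 0.0438. The same number was the best match in 10 of these pairs. Slide as a random block (within-slide correlation -0.0623) called 4, 3 and 6, and as a fixed block it could be fitted only without Tat-/Meth. Dim probes limit genes such as Kcnj15 and Kcnt2, well above background on 16 and 15 arrays.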
